A study of Drosophila melanogaster with 31 samples.

Results

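HeT-A, TAHRE and TART are the non-LTR retrotransposons that make up the ends of *Drosophila* chromosomes, and the telomeric elements described here are the entries named HETA, TAHRE, TART and TART_B1. The 4 entries were chosen by name from the 129 transposable element entries that each of the 5 deposited element tables lists, and all 4 are present in every table. Flies have no telomerase. Copies of these elements that transpose onto chromosome ends replace the sequence lost there, with HeT-A supplying a Gag protein but no reverse transcriptase of its own, and TAHRE and TART encoding a reverse transcriptase. In the female germline their RNA is held down by PIWI-interacting RNAs (piRNAs), the small RNAs that guide Piwi-family proteins to transposon transcripts.

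All libraries came from ovarian somatic cells (OSC), a cultured line of follicle cell origin that carries the Piwi branch of the piRNA pathway, grown at 26 °C. In the nucleus of such cells Piwi, with Panoramix (Panx) and the RNA export factor homologue Nxf2, silences transposons at the chromatin level. The RNA libraries were poly(A)+ RNA from cells transfected with short interfering RNA against Nxf2 (Nxf2-KD), Panx (Panx-KD), Piwi (Piwi-KD) or, as the control, EGFP (EGFP-KD). Crosslinking immunoprecipitation (CLIP) of myc-tagged Nxf2 was done in a stable line that expresses it, with UV and without UV as the control. The same line was used for Nxf2 CLIP after knockdown of Piwi or, as the control, EGFP, and the labels say that endogenous Nxf2 was depleted as well in both of these groups. For the IP from EGFP-KD cells the table's header leaves this depletion out. Piwi CLIP and Piwi-bound small RNA came from OSC with no listed knockdown. Each CLIP experiment has a size-matched input (SMInput), taken from the same region of the membrane without immunoprecipitation.

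The tables give 1 column of read counts per condition, 15 libraries in all, although the labels list 1 or 2 samples for each. For RNA the labels list 1 sample for Piwi-KD and 2 each for EGFP-KD, Nxf2-KD and Panx-KD. Whether a column pools its samples is not stated, so no spread between replicates was measurable and no test across replicates was run. Each ratio below is the share of the library total in one library over that in another, with an exact 95% interval that covers counting error only, since reads without molecular identifiers are not independent molecules. An entry was tested where its mean over the table was at least 1 read per kilobase and 1000000 library reads (RPKM, for RNA) or 1 read per 1000000 library reads (RPM, for the other assays). It was called where the ratio was at least 2 or at most 0.5 and the interval left out 1. For calls, medians and ranks, a count of 0 was replaced by 3 reads where the other count was above 3. With a 0 and no count above 3, no call was made. Ratios of ratios were not filled in this way. Library totals ran between 8968998 and 9852335 reads for RNA and between 426679 and 2746550 for CLIP, with 3187937 reads for small RNA. The tables hold no genes, so neither the depletion of the targeted genes nor the identity of the cells by marker genes could be checked here. In such bulk samples fewer cells with a transcript and less of it per cell cannot be told apart. How reads that map to several entries were counted, and whether strand was used, are not given in the sources used here. Reads shared between TART and TART_B1, which are related sequences, may therefore have been split between them.

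TART, the longest of the entries at 14477 bases, had the highest RNA level of the 4. It held 4997 reads in Nxf2-KD, 5190 in Panx-KD and 4137 in Piwi-KD cells, against 6519 in EGFP-KD cells. Per length, its RNA level was 38.0 RPKM in Nxf2-KD, 39.3 in Panx-KD and 31.9 in Piwi-KD cells, against 45.7 RPKM in EGFP-KD cells. All 3 knockdown libraries thus sat below the control. The lowest was Piwi-KD, the RNA condition with only 1 sample in the labels. TART was rank 12 of the 129 entries per length in EGFP-KD cells, where the median entry had 0.739 RPKM.

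TART_B1, an entry of 10654 bases for a TART variant, had the next highest level. Its reads numbered 1242 in Nxf2-KD, 1393 in Panx-KD and 1055 in Piwi-KD cells, against 1582 in EGFP-KD cells. That is an RNA level of 12.8 RPKM in Nxf2-KD, 14.3 in Panx-KD and 11.0 in Piwi-KD cells, against 15.1 RPKM in EGFP-KD cells. The order of the libraries was the same as for TART, with Piwi-KD lowest and EGFP-KD highest.

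HETA and TAHRE were close to the limit of detection in RNA. HETA, the HeT-A entry of 6081 bases, had 12 reads in Nxf2-KD, 20 in Panx-KD and 11 in Piwi-KD cells, against 30 in EGFP-KD cells. TAHRE, of 10463 bases, had 13 reads in Nxf2-KD, 14 in Panx-KD and 15 in Piwi-KD cells, against 9 in EGFP-KD cells. HETA was thus lowest in Piwi-KD and highest in EGFP-KD cells, whereas TAHRE had its fewest reads in EGFP-KD cells. As RNA levels these are 0.202 to 0.360 RPKM for HETA in the knockdowns against 0.501 RPKM in EGFP-KD cells, and 0.137 to 0.160 RPKM for TAHRE in the knockdowns against 0.0873 RPKM in EGFP-KD cells.

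**Figure D1:**
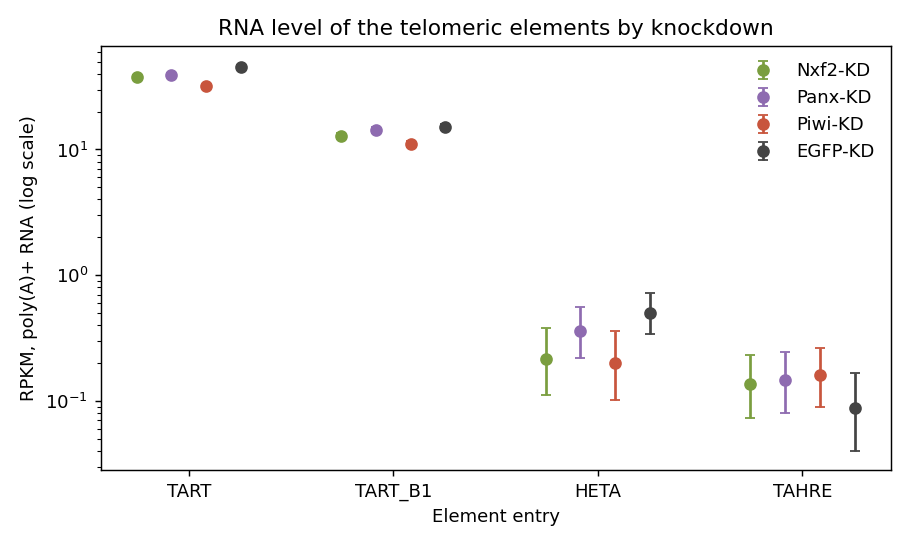
RNA level of each telomeric entry in RPKM (log axis) in the Nxf2-KD, Panx-KD, Piwi-KD and EGFP-KD libraries; points are the single deposited column of each condition and bars are exact 95% counting intervals. TART lies between 31.9 and 45.7 RPKM and TART_B1 between 11.0 and 15.1 RPKM, while HETA and TAHRE stay at or below 0.501 RPKM.

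Per length the order was TART, TART_B1, HETA, TAHRE in every RNA library. The gap from TART to TART_B1 exceeded the counting intervals in each of them. HETA stood above TAHRE beyond its interval in EGFP-KD cells, at 5.74 times the RNA level (2.65 to 13.7), and in Panx-KD cells, at 2.46 times (1.18 to 5.26). In Nxf2-KD and Piwi-KD cells these neighbours did not differ beyond their intervals.

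Knockdown of Nxf2, Panx or Piwi addresses which elements are held down by nuclear silencing. None of the telomeric entries passed as higher in any of the 3 knockdowns. The TART ratio to EGFP-KD was 0.830 (0.80 to 0.862) in Nxf2-KD, 0.859 (0.828 to 0.891) in Panx-KD and 0.697 (0.670 to 0.725) in Piwi-KD cells. For TART_B1 it was 0.850 (0.789 to 0.917) in Nxf2-KD, 0.95 (0.884 to 1.02) in Panx-KD and 0.733 (0.677 to 0.792) in Piwi-KD cells. All but the Panx-KD value of TART_B1 were below 1 beyond counting error, and none reached the 2-fold limit. The 3 comparisons share the EGFP-KD library and are not independent of each other.

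Most other tested entries lay on the other side of 1. Of 65 entries tested in RNA, 33.8% were called in Nxf2-KD, 33.8% in Panx-KD and 46.2% in Piwi-KD cells, against 0 of the 2 telomeric entries tested. The median ratio of all tested entries was 1.39 in Nxf2-KD, 1.51 in Panx-KD and 1.505 in Piwi-KD cells. Only 5 tested entries had a lower ratio than TART in Nxf2-KD, 4 in Panx-KD and 3 in Piwi-KD cells. Reads on all elements made up 9.64% of the library in Nxf2-KD, 10.3% in Panx-KD and 16.4% in Piwi-KD cells, against 5.68% in EGFP-KD cells. The telomeric entries supplied 0.715% of those element reads in Nxf2-KD, 0.701% in Panx-KD and 0.354% in Piwi-KD cells, against 1.46% in EGFP-KD cells.

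Because so many elements moved, the scale matters for the direction of small differences. With element reads left out of the library totals, the TART ratio was 0.867 in Nxf2-KD, 0.904 in Panx-KD and 0.787 in Piwi-KD cells, all still below 1. Relative to the median tested entry, which itself stood 0.48, 0.60 and 0.59 above EGFP-KD on the log2 scale in Nxf2-KD, Panx-KD and Piwi-KD cells, the TART ratios were 0.597, 0.569 and 0.463. On that scale TART and TART_B1 were both called lower in Piwi-KD cells, TART_B1 at a ratio of 0.487, where 10.8% of the 65 tested entries were called lower. TART_B1 in Panx-KD cells was at 0.9996 with element reads left out, so no direction can be given for it.

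The 2 low entries missed the filter on the mean RNA level. The HETA ratio to EGFP-KD was 0.433 (0.202 to 0.872) in Nxf2-KD, 0.719 (0.387 to 1.31) in Panx-KD and 0.403 (0.182 to 0.827) in Piwi-KD cells. Without the filter HETA was called lower in Nxf2-KD and Piwi-KD cells, where 0.775% and 2.33% of all 129 entries were called lower. Both shares count HETA, which was the only entry called lower in Nxf2-KD cells. The HETA ratios there rest on 12 and 11 reads against 30. The TAHRE ratio was 1.56 (0.619 to 4.15) in Nxf2-KD, 1.68 (0.677 to 4.4) in Panx-KD and 1.83 (0.751 to 4.74) in Piwi-KD cells. With 9 reads in EGFP-KD cells, 20 reads were needed in a knockdown for TAHRE to be called higher, so a smaller rise was not detectable for it at this depth.

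**Figure D2:**
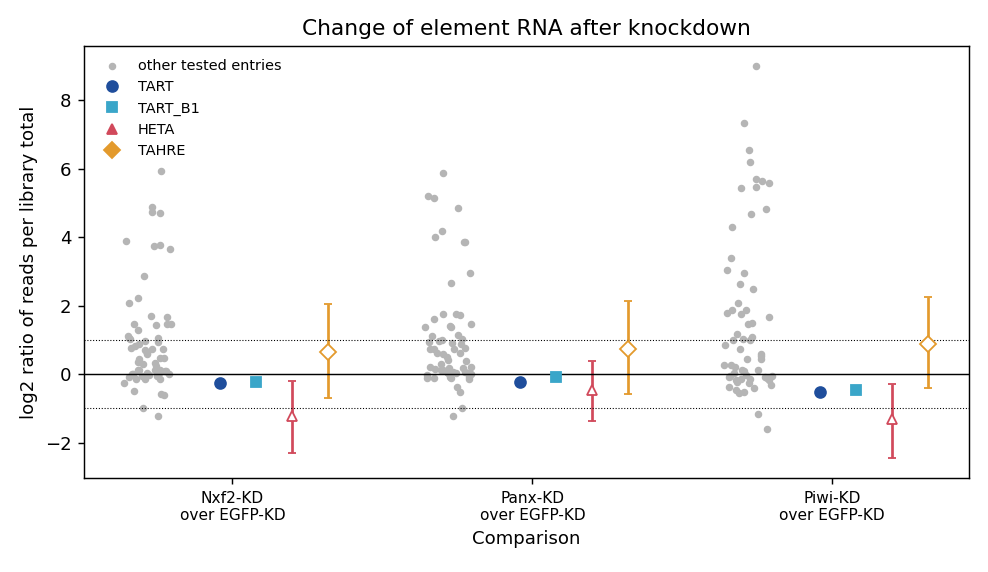
Log2 ratio of reads per library total in Nxf2-KD, Panx-KD and Piwi-KD over EGFP-KD RNA; grey points are the other tested entries, coloured symbols the telomeric entries with exact 95% counting intervals, open where the entry missed the filter, and dotted lines mark a 2-fold change. TART (0.830, 0.859 and 0.697 as ratios) and TART_B1 lie below 0 on the log2 axis under most of the grey points, and the intervals of HETA and TAHRE are wide.

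The knockdowns were also set against each other directly. The ratio of Piwi-KD to Nxf2-KD RNA was 0.840 (0.805 to 0.875) for TART and 0.861 (0.793 to 0.936) for TART_B1. Over Panx-KD, Piwi-KD RNA was at 0.811 (0.779 to 0.845) for TART and 0.771 (0.711 to 0.836) for TART_B1. These ratios lay below 1 beyond counting error and short of the 2-fold limit. In each of these comparisons 21.5% of the tested entries were called, all of them higher in Piwi-KD cells and 0% lower. With element reads left out of the totals, TART_B1 in Piwi-KD over Nxf2-KD cells was at 0.931 (0.857 to 1.01), which includes 1. The ratio of Nxf2-KD to Panx-KD RNA was 0.967 (0.930 to 1.01) for TART and 0.895 (0.828 to 0.967) for TART_B1, and there 0% of the tested entries were called. The TART interval of that pair includes 1. With element reads left out of the totals, TART there was at 0.959 (0.922 to 0.997), which leaves out 1. The median tested entry of that pair was TART itself. Relative to it, TART_B1 there was at 0.926 (0.857 to 1.0004), which includes 1.

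As a wider group, 23 other entries of the Jockey clade of non-LTR elements, to which the telomeric elements belong, were taken from the tables by name: the BS, DOC, FW, G, HELENA and Jockey entries, with or without a number. Of these 23, 7 were tested in RNA, and 2 were called higher in Nxf2-KD, 3 in Panx-KD and 4 in Piwi-KD cells. Among all tested entries 33.8%, 33.8% and 43.1% were called higher in these knockdowns. Their median ratio was 1.85 in Nxf2-KD, 1.94 in Panx-KD and 3.20 in Piwi-KD cells, beside 1.39, 1.51 and 1.505 over all tested entries. The pattern of names leaves out G5A, and with it added, after the values were seen, the list medians were 1.47, 1.52 and 2.204. In Piwi-KD cells the values ran between 0.732 for DOC2 and 6.18 for BS2. The ratios of TART, 0.697, and of TART_B1, 0.733, were thus close to or under the low end of that range.

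Piwi-bound small RNA separated the telomeric entries into a pair with many reads and a pair with almost none. TART_B1 had 6460 small RNA reads, 0.203% of the library (0.198 to 0.208). TART had 5402, or 0.169% (0.165 to 0.174). TAHRE and HETA had 6 and 4 reads. TART_B1, lower than TART in RNA, was the higher of the pair in small RNA.

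Per length, the small RNA level was 190.2 RPM per kb for TART_B1 and 117 for TART, ranks 39 and 44 of 129. For HETA it was 0.206 and for TAHRE 0.180 RPM per kb, ranks 121 and 122, against 23.2 RPM per kb for the median entry. HETA and TAHRE did not differ from each other beyond counting error. All telomeric entries together held 0.988% of the small RNA reads on elements.

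Set over its EGFP-KD RNA level, the small RNA level of TART was below the median of entries with at least 1 RPKM. The quotient of small RNA RPM per kb over RPKM was 2.56 for TART and 12.6 for TART_B1. Among the 61 entries with at least 1 RPKM in EGFP-KD cells these were ranks 43 and 31, and TART_B1 was itself the median of that group. The quotients of HETA, 0.412, and TAHRE, 2.06, rest on 4 and 6 small RNA reads.

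**Figure D3:**
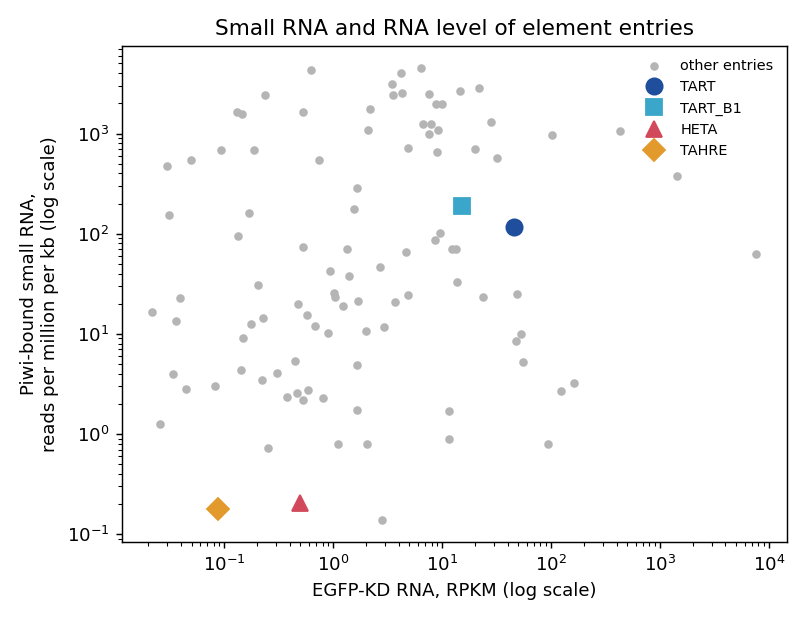
Piwi-bound small RNA level (RPM per kb) against EGFP-KD RNA level (RPKM), both on log axes, 1 point per element entry; 103 of 129 entries are drawn and 26 with a 0 on either axis are not. TART (45.7 RPKM, 117 RPM per kb) and TART_B1 (15.1 and 190.2) lie in the upper right, HETA and TAHRE at the lower edge.

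The balance between the TART entries, compared after its values had been seen, differed by assay. Per length, TART_B1 over TART was 1.62 (1.57 to 1.69) in Piwi-bound small RNA. In RNA it was 0.338 in Nxf2-KD, 0.365 in Panx-KD and 0.347 in Piwi-KD cells, against 0.330 (0.312 to 0.348) in EGFP-KD cells. The small RNA balance was 4.93 times (4.61 to 5.27) that of EGFP-KD RNA. The assays differ in library preparation and read length, whose part in this difference was not tested.

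Among the RNA libraries the balance was nearly constant. Relative to EGFP-KD it was 1.02 (0.942 to 1.11) in Nxf2-KD, 1.11 (1.02 to 1.20) in Panx-KD and 1.05 (0.962 to 1.15) in Piwi-KD cells. In Piwi CLIP the balance was 0.481 (0.285 to 0.784) in the IP, against 0.307 in the SMInput. The small RNA balance was 3.38 times (2.07 to 5.71) that of the Piwi CLIP IP.

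In Nxf2 CLIP the balance was 0.981 (0.442 to 2.12) in the Piwi-KD IP, against 0.307 (0.114 to 0.710) in its SMInput. The EGFP-KD IP had a balance of 1.09 (0.465 to 2.49), against 0.383 (0.177 to 0.763) in its SMInput. With UV it was 0.679 in the IP, against 0.510 in the SMInput. The IP values were thus the higher ones in all 3 Nxf2 experiments, with overlapping intervals.

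**Figure D4:**
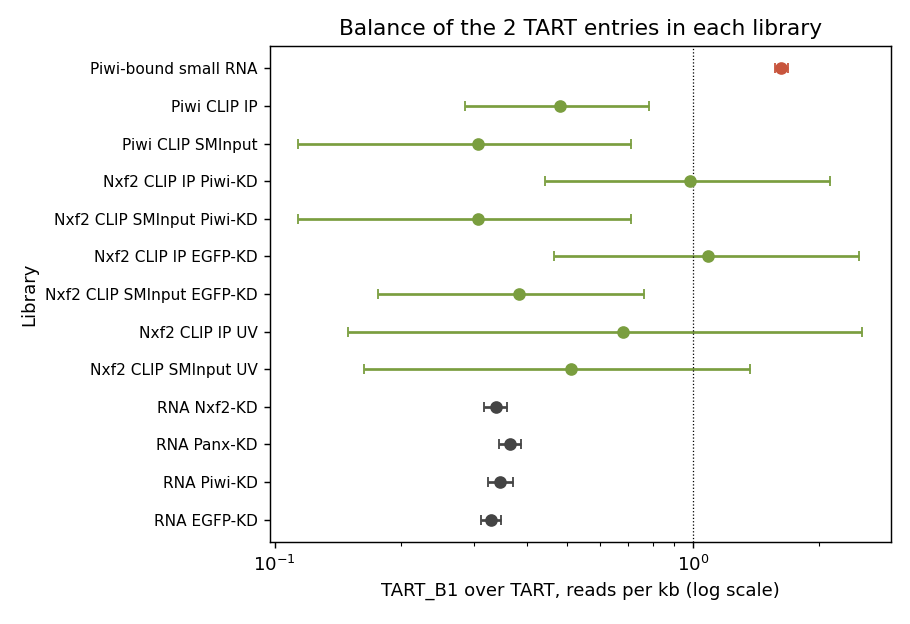
Ratio of TART_B1 to TART reads per kb (log axis) in each library with reads on both entries; bars are exact 95% counting intervals and the dotted line marks equal levels. Small RNA stands at 1.62, the RNA libraries between 0.330 and 0.365, and the CLIP libraries between 0.307 and 1.09 with wide intervals.

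Piwi CLIP recovers the RNAs that Piwi contacts. For the telomeric entries it gave few reads. TART had 65 reads in the Piwi IP, against 31 in the SMInput. TART_B1 had 23 in the IP, against 7 in the SMInput. HETA and TAHRE each had 4 in the IP, against 1 in the SMInput. As levels, TART stood at 90.6 RPM in the IP and 71.0 RPM in the SMInput, and TART_B1 at 32.1 RPM in the IP and 16.0 RPM in the SMInput.

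The Piwi IP over SMInput ratio was 1.28 (0.820 to 2.03) for TART and 2.0 (0.831 to 5.52) for TART_B1. For HETA and TAHRE it was 2.43 (0.241 to 119.9) each. None of the 4 telomeric entries, all of which passed the filter here, was called, while 60.2% of the 98 tested entries were, at a median ratio of 3.04. A call needed 102 IP reads for TART and 28 for TART_B1. The sum of the 4 entries, 96 reads in the IP against 40 in the SMInput, gave a ratio of 1.46 (1.0001 to 2.17). Relative to the median tested entry TART was called lower, at a ratio of 0.419, where 8.16% of the tested entries were called lower, so the scale decides that call. Reads on all elements were 15.1% of the Piwi IP, against 2.80% of its SMInput, and the telomeric entries supplied 0.0886% of element reads in the IP, against 0.328% in the SMInput.

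Nxf2 CLIP after knockdown gave similar low counts. In Piwi-KD cells TART had 18 reads in the IP, against 31 in the SMInput. TART_B1 had 13 in the IP, against 7 in the SMInput. HETA had 2 in the IP and none in the SMInput, and TAHRE 4 in the IP and 1 in the SMInput. TART_B1 alone was higher in the IP beyond its counting interval.

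The EGFP-KD cells gave TART 15 reads in the IP, against 39 in the SMInput. TART_B1 there had 12 in the IP, against 11 in the SMInput. HETA had 2 in the IP and 5 in the SMInput, and TAHRE none in the IP and 1 in the SMInput. Here no telomeric entry stood above the SMInput beyond its exact interval. TART_B1, at an IP over SMInput ratio of 2.46, was called higher with Wilson intervals (1.11 to 5.45) and, at 2.49 (1.01 to 6.23), with element reads left out of the totals.

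The IP over SMInput ratio of TART was 1.17 (0.617 to 2.16) in Piwi-KD and 0.866 (0.444 to 1.61) in EGFP-KD cells. For TART_B1 it was 3.74 (1.39 to 11.1) in Piwi-KD and 2.46 (0.992 to 6.15) in EGFP-KD cells. For the lower entries, TAHRE was at 8.06 (0.798 to 397) in Piwi-KD cells and HETA at 0.901 (0.0858 to 5.50) in EGFP-KD cells. All 4 telomeric entries passed the filter in this experiment, TAHRE only through the Piwi-KD IP. TAHRE had 3.60 RPM in that IP, the library its ratio tests, and at most 0.447 RPM in the others of this experiment. TART_B1 in Piwi-KD cells was the 1 called higher, where 37.2% of the 78 tested entries were called. That call rests on 13 reads and was lost at a pseudocount of 10 RPM, where the ratio was 1.65, with TART and TART_B1 summed, at 1.64, and relative to the median tested entry, at 1.97 (0.730 to 5.83). In EGFP-KD cells 53.8% of the tested entries were called and no telomeric entry was, with 35 IP reads needed for TART and 13 for TART_B1. The median tested ratio was 1.90 in Piwi-KD and 2.82 in EGFP-KD cells, and relative to it TART in EGFP-KD cells was called lower, at 0.308, where 16.7% of the tested entries were called lower.

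The change of the Nxf2 IP with Piwi knockdown was within counting error for TART and TART_B1, and on the scale of library totals no telomeric entry was called. The Piwi-KD IP over the EGFP-KD IP was 1.17 (0.557 to 2.50) for TART and 1.06 (0.445 to 2.53) for TART_B1, where 26.9% of tested entries were called. Between the SMInputs, Piwi-KD over EGFP-KD was 0.866 (0.522 to 1.42) for TART and 0.693 (0.228 to 1.96) for TART_B1, with 23.1% of tested entries called. The ratio of the IP over SMInput ratios, Piwi-KD to EGFP-KD, was 1.35 (0.543 to 3.38) for TART and 1.52 (0.380 to 6.28) for TART_B1, with 32.1% of tested entries called. Most of those calls were lower, at 29.5% of tested entries, the median was 0.525, and 60 tested entries had a lower value than TART. Relative to that median TART was called higher, at 2.57 (1.03 to 6.44), where 11.5% of tested entries were called higher. HETA had 2 reads in either IP, and 0 in the Piwi-KD SMInput against 5 in the EGFP-KD SMInput. TAHRE had 4 reads in the Piwi-KD IP against 0 in the EGFP-KD IP, and 1 in each SMInput. The intervals given here leave room for changes of more than 2-fold, except that of TART between the SMInputs (0.522 to 1.42).

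UV crosslinking fixes RNA to the protein that contacts it, and libraries made without UV give the background. With UV, the Nxf2 IP held 8 TART reads, against 16 in its SMInput. The no-UV libraries held none in the IP and 1 in the SMInput. A count of 0 in the no-UV IP allows up to 7.03 RPM at a floor of 3 reads, above the 6.46 RPM of TART in the UV IP. TART_B1 had 4 reads in the UV IP and 6 in the UV SMInput, and none in either no-UV library. HETA and TAHRE had at most 1 read in any of these libraries.

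With UV the IP over SMInput ratio was 1.11 (0.411 to 2.75) for TART and 1.48 (0.307 to 6.24) for TART_B1. No telomeric entry was called, beside 38.1% of the 63 tested entries, and the median tested ratio was 1.89. TART was called higher in the UV SMInput over the no-UV SMInput, at 9.71 (1.51 to 407), a ratio that rests on 16 reads against 1. There 42.9% of tested entries were called, and those called higher in the UV SMInput were 41.3% of all tested. The TART call was lost relative to the median tested entry, at 3.2 (0.497 to 134), and at a pseudocount of 10 RPM, at 1.49. Reads on all elements were 1.07% of the UV SMInput, against 0.102% of the no-UV SMInput. Between the IPs, 33.3% of tested entries were called. TART with 8 reads against 0 was not. The no-UV IP holds only 426679 reads in all, and the lower bound of the TART ratio was 0.588. With the 0 replaced by 3 reads the ratio was 0.919, and 18 reads in the UV IP were needed for a call. No ratio could be formed for any telomeric entry in the no-UV IP over SMInput, where 15.9% of tested entries were called, or in the change of the IP over SMInput ratio with UV, where 9.52% were.

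**Figure D5:**
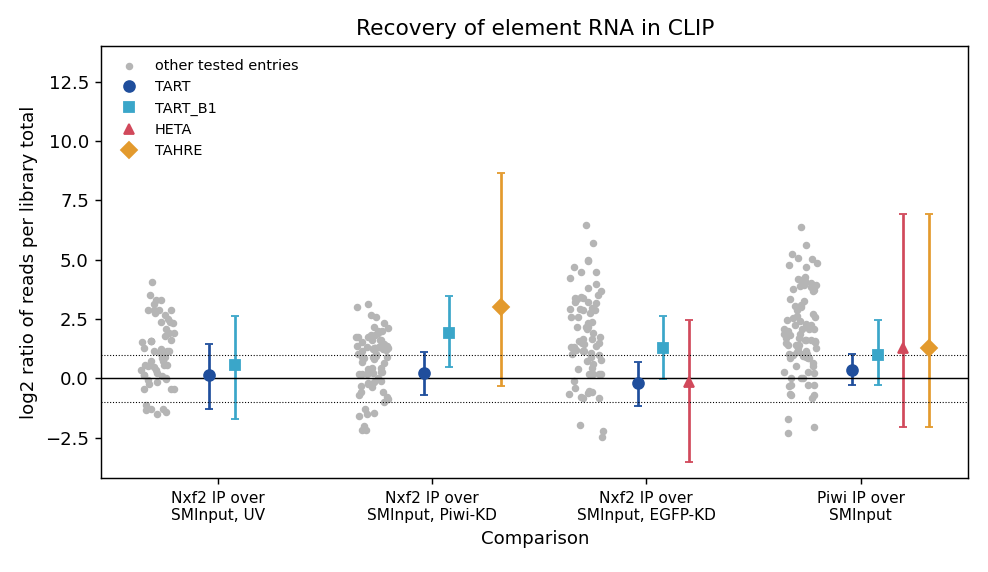
Log2 ratio of IP over SMInput reads per library total for Nxf2 CLIP with UV, in Piwi-KD and in EGFP-KD cells, and for Piwi CLIP; grey points are the other tested entries, coloured symbols the telomeric entries that passed the filter and had reads in both libraries, with exact 95% counting intervals, and dotted lines mark a 2-fold difference. TART lies near 0 on the log2 axis throughout (ratios of 1.11, 1.17, 0.866 and 1.28), with TART_B1 above it each time.

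The Jockey-clade list was described in CLIP as well. In the EGFP-KD Nxf2 IP 4 of its 8 tested members were called higher, beside 50% of all tested entries, with a median ratio of 5.53 and values between 0.563 for BS2 and 25.5 for DOC. In the UV Nxf2 IP 3 of 6 were called higher, beside 34.9% of all, at a median of 3.34. In the Piwi-KD Nxf2 IP 2 of 8 were called higher, beside 33.3% of all, at a median of 2.51. In the Piwi IP 9 of 16 were called higher, beside 57.1% of all, and the median of 3.04 was that of all tested entries. These shares lie near those of all entries. The TART ratios in these comparisons were 0.866, 1.11, 1.17 and 1.28.

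Across 14 libraries, on log2 levels centred within each table, the entries with the pattern most like TART were Chimpo (Pearson r = 0.810), M4DM (0.793) and TART_B1 (0.786). For TART_B1 they were GYPSY12 (0.878), BEL (0.865) and BLOOD (0.833). The points share library totals and preparation within each table, so these values only describe likeness. HETA, with 6.29 reads on average over these libraries, and TAHRE, with 4.5, were under the minimum of 10 reads for this measure.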

How the data were processed

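Element read counts, with RPKM for RNA and RPM for CLIP and small RNA, were deposited by the authors, per the file headers. Per the submitters' processing notes, tools included TopHat2 2.0.14, Bowtie2 2.2.9, Bowtie 1.0.1 and DESeq2 for RNA and cutadapt, STAR, SAMtools and Bowtie for CLIP. Library totals were recovered as counts over the deposited RPKM or RPM. Since each table has 1 column per condition, the planned count model across replicates was not fitted. Ratios per library total were given exact conditional binomial 95% intervals. Ratios of ratios were given exact conditional odds ratio intervals (Python 3.11.15, SciPy 1.17.1, NumPy 2.4.6). Both kinds were checked on simulated Poisson counts of entries above a minimum read number, which left out HETA and TAHRE in CLIP. Such counts cannot check the effect of reads that are not independent. A ratio against 0 reads was given as an interval bound or, where named, with the 0 replaced by 3 reads. Calls, medians and ranks used that replacement. All 129 entries entered each of 17 comparisons. Named entries were the 4 telomeric ones, the extremes of the Jockey-clade list and the 3 most alike each telomeric entry by Pearson r over log2 levels (pseudocount 1). Members and lists were chosen with earlier results of these data known. Scaling, filter, interval, pseudocount and summed entries were varied. The 2 H3K9me3 peak lists were not used.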

Additional observations from a re-analysis of the deposited data

How the results depend on the processing

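Of 390 values recomputed under alternative settings, 353 stayed the same in direction and side of the limits, 12 turned direction and 25 changed otherwise. The cause of these changes was not tested. Changing the filter or the kind of interval leaves a ratio as it is, so those values could not turn. The pseudocounts kept the original intervals. Ranks and Jockey-clade list values, also counted, have no direction and were compared as values. The tally is therefore no measure of robustness. For the count of telomeric entries called, no filter gave 1 (HETA) instead of 0 in Nxf2-KD and in Piwi-KD RNA. A mean of at least 10 RPM, or a pseudocount of 10 RPM, gave 0 instead of 1 for the UV over no-UV SMInput and for the Piwi-KD Nxf2 IP over SMInput. Totals without element reads gave 1 instead of 0 (TART_B1, 2.49) for the EGFP-KD Nxf2 IP over SMInput. Wilson intervals also gave 1 there, and 2 instead of 1 in Piwi-KD cells. The entry added in Piwi-KD cells was TAHRE, with 4 reads in the IP against 1 in the SMInput. TAHRE passed the filter only through that IP.

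Centring on the median tested entry gave 2 instead of 0 in Piwi-KD RNA, and 1 instead of 0 in the EGFP-KD Nxf2 IP, the Piwi-KD over EGFP-KD SMInput, the Piwi IP and the Piwi-KD effect on the Nxf2 IP. The call between the SMInputs was HETA, lower, at 0 reads in Piwi-KD against 5 in EGFP-KD cells. It rests on the 0 being replaced by 3 reads, and the share of all entries called lower there is not given here. Centring gave 0 instead of 1 for the UV over no-UV SMInput and the Piwi-KD Nxf2 IP. The IP over SMInput ratios it turned were TART 0.586 and TART_B1 0.781 with UV, TART 0.616 in Piwi-KD cells, TART_B1 0.873 in EGFP-KD cells, and in Piwi CLIP TART 0.419, TART_B1 0.657 and HETA and TAHRE 0.8 each. It also turned TAHRE in the Piwi-KD over EGFP-KD SMInput, to 0.791. With TART and TART_B1 summed the TART ratio in the EGFP-KD IP was 1.22, and with all 4 entries summed 1.17. HETA in Piwi-KD over Nxf2-KD RNA was 1.01 with totals without element reads.

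No paired analysis was possible because each table holds 1 column per condition, and for the same reason no replicate was left out in turn. Depth limits HETA and TAHRE in every assay, and TART and TART_B1 in CLIP.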

Other observations

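Entries close to TART or TART_B1 in level were chosen after the values were seen and are given as a description with no test. They are the 5 ranked directly above and the 5 directly below, telomeric entries left out. Nearness is thus by rank and not by distance in level. Of the 10 entries nearest in rank to TART in EGFP-KD RNA level, 9 were called higher in the EGFP-KD Nxf2 IP over SMInput. The median ratio of the 10 was 4.38, where TART was at 0.866, and 50% of all tested entries were called higher. In the Piwi IP 7 of these 10 were called higher, at a median of 3.59, beside 57.1% of all, where TART was at 1.28. In RNA 3 of the 10 were called higher in Nxf2-KD and 3 in Panx-KD cells, and 4 higher and 1 lower in Piwi-KD cells, beside 33.8%, 33.8% and 43.1% of all tested entries called higher.

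Of the 9 entries nearest in rank to TART in small RNA level, 4 were tested in RNA. None of those was called in Nxf2-KD, Panx-KD or Piwi-KD cells, at median ratios of 0.985, 0.968 and 0.889. Among all tested entries 33.8%, 33.8% and 46.2% were called there. In the Piwi IP 7 of these 9 were called higher, at a median ratio of 3.04. Among all tested entries 57.1% were called higher there, at the same median of 3.04. In the EGFP-KD Nxf2 IP 1 of the 9 was called higher and 1 lower, at a median of 2.82. All tested entries had the same median there, with 50% called higher. In the UV Nxf2 IP 0 of the 4 tested were called, at a median of 1.94, beside 38.1% of all tested entries, at a median of 1.89. The 10 entries nearest in rank to TART_B1 in EGFP-KD RNA level ran between 11.6 and 31.7 RPKM, against 15.1 RPKM for TART_B1. Of these 10, 5 were called higher in Nxf2-KD, 5 in Panx-KD and 6 in Piwi-KD cells. Among all tested entries 33.8%, 33.8% and 43.1% were called higher there. In the Piwi IP 9 of the 10 were called higher, beside 57.1% of all tested entries. Their median there was 9.39, where TART_B1 was at 2.0. The lists of TART and TART_B1 share entries.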
